A study of Mus musculus with 2 samples.

Results

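Voltage-gated and potassium ion channel genes were examined in a Cut&Tag peak list from mouse hippocampus. The set held the 138 protein-coding genes of the RefSeq annotation of GRCm38 whose symbols begin with Kcn, Cacna1, Cacna2d, Cacnb or Cacng, or with Scn or Hcn and a digit, out of 21887 protein-coding genes on chromosomes 1 to 19, X and Y. They comprised 94 potassium channel genes, 26 calcium channel genes, 14 sodium channel genes, and 4 HCN genes, and were chosen by name and not by a measured value. In Cut&Tag, an antibody on chromatin directs a Tn5 transposase to cut and tag the nearby DNA. Hippocampal nuclei were profiled once with an antibody to Smad4, a signal transducer of the TGF-β pathway, and once with control IgG, and neither library was replicated. The labels give no strain, genotype, age, sex or treatment for the tissue. The 1 peak list analysed here, with 5326 peaks called by MACS2, belongs in the labels to the IgG sample and names no antibody, so no peak below is assigned to Smad4 or to IgG. A peak list holds no expression values, and the hippocampal origin was not checked against marker genes.

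Ion channels are membrane proteins that let potassium, calcium or sodium ions pass down their gradients. Sodium channels carry the upstroke of the action potential, potassium channels repolarize the membrane and hold it at rest, calcium channels couple depolarization to transmitter release and gene expression, and HCN channels carry an inward current on hyperpolarization that tunes dendritic integration in hippocampal pyramidal neurons. Each channel has a pore, formed by a large subunit or by several smaller ones, and many channels also have auxiliary subunits that set their gating and transport. Many pore genes of the nervous system are very long, with introns that make up most of their sequence.

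A gene was taken to have a peak if a peak overlapped it or lay within 3 kb of it. By this rule 36 of the 138 channel genes (26.1%) had a peak and 102 had none, against 13.0% of all protein-coding genes. Channel genes were longer than other genes, with a median of 42.6 kb against 17.2 kb. When each channel gene was given the share of all protein-coding genes in its own length bin, with 10 bins of equal gene number, the count came to 30.4 genes, and the observed count was 1.19 times this. With 100 bins the length-based count was 32.6 and the ratio 1.10, and with peaks at a q-value of at most 0.01 in 10 bins the ratio was 0.888. Peaks in and within 3 kb of channel genes numbered 54 over 18.1 Mb, or 2.98 per Mb (95% exact Poisson interval 2.24 to 3.88), and the density over all protein-coding genes was 2.79 per Mb (2.70 to 2.89). The densities per Mb therefore overlapped in their intervals, which cover counting error within 1 list. The peak share of channel genes was about that of other genes of like length, and no test between conditions was possible with 1 list.

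The dependence on length was seen within the set. The 36 channel genes with a peak had a median length of 161 kb, and the 102 without had a median of 30.9 kb. Of channel genes under 20 kb, 3 of 44 (6.82%) had a peak, against 5.42% of all protein-coding genes of that length. From 50 to 100 kb the count was 5 of 22 (22.7% against 21.2%), from 100 to 200 kb it was 6 of 17 (35.3% against 32.7%), and at 200 kb or more it was 15 of 27 (55.6% against 56.2%). In these 4 classes the 2 shares differed by less than 3 percentage points. The class from 20 to 50 kb stood apart in size, with 7 of 28 channel genes (25%) against 12.5%. These 7 genes, chosen after their values were seen, were Kcna6, Kcng1, Kcnj10, Kcnk9, Cacng7, Cacng8, and Scn4a, and for Cacng8 and Scn4a the single peak lay outside the gene. Per Mb, channel genes under 100 kb held 5.21 peaks (95% exact Poisson interval 3.09 to 8.23) and all protein-coding genes of that length held 3.38 (3.23 to 3.55), whereas at 100 kb or more the densities were 2.45 (1.72 to 3.39) and 2.34 (2.22 to 2.46). In both length ranges the intervals overlap.

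**Figure D1:**
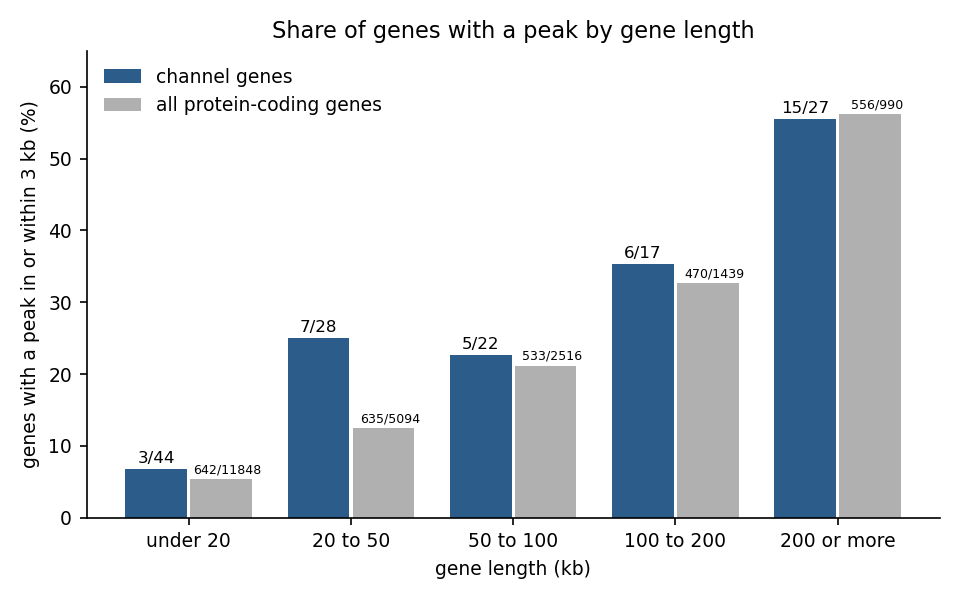
Share of genes with a peak in or within 3 kb (y axis, percent) by gene length class (x axis, kb) for channel genes (blue) and all protein-coding genes (gray), with the counts above the bars. Both shares rose from under 7% below 20 kb to about 56% at 200 kb or more, and they differed most from 20 to 50 kb.

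By family, 23 of 94 potassium channel genes (24.5%), 9 of 26 calcium channel genes (34.6%), 4 of 14 sodium channel genes (28.6%), and none of the 4 HCN genes had a peak. With peaks at a q-value of at most 0.01 alone, the counts were 6 (6.38%), 5 (19.2%), 2 (14.3%), and 0, against 6.32% of all protein-coding genes. These shares were not adjusted for gene length. The families differed in length, with medians of 32.7 kb, 104 kb, 103 kb, and 29.9 kb, respectively. The counts given by gene length in 10 bins were 18, 7.65, 3.97, and 0.765 genes. With 100 bins they were 20.2, 8.20, 3.26, and 0.946 genes. The observed count divided by the length-based count was 1.28 for potassium, 1.18 for calcium, and 1.01 for sodium channel genes with 10 bins, and 1.14, 1.10, and 1.23 with 100 bins, so the order of the families changed with the bins. The density of peaks was 2.67 per Mb (95% exact Poisson interval 1.80 to 3.81) in potassium, 3.53 per Mb (2.09 to 5.59) in calcium, and 4.48 per Mb (1.64 to 9.74) in sodium channel genes. These 3 intervals overlap each other and include the density over all protein-coding genes. The HCN genes had no peak in 0.476 Mb, for which the upper limit of the exact interval was 7.75 per Mb.

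**Figure D2:**
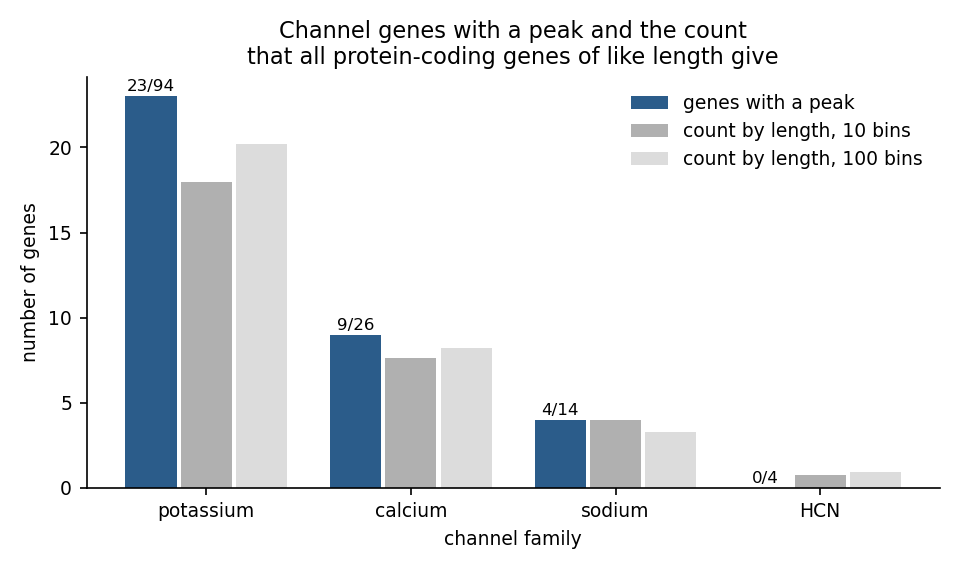
Number of genes with a peak (blue, with the family size) in the potassium, calcium, sodium, and HCN families, beside the number given by the shares of all protein-coding genes in the same length bins, with 10 bins (gray) and 100 bins (light gray). The potassium, calcium, and sodium counts of 23, 9, and 4 stood above both length-based counts, and the HCN count of 0 stood below them.

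The fragments behind a peak were few. The pileup, the number of overlapping fragments at the summit, was recovered from the fold enrichment and p-value that MACS2 gave each peak. It was 2 in 32 of the 54 channel peaks (59.3%, 95% exact binomial interval 45.0% to 72.4%), 3 in 9, 4 or 5 in 7, 6 to 9 in 4, and 10 in 2. A pileup of 2 was found in 48.2% (46.5% to 50.0%) of the peaks at protein-coding genes and in 53.4% (52.1% to 54.8%) of the whole list, and both shares lie inside the interval for channel peaks. A q-value of at most 0.01 was reached by 15 of the 54 channel peaks (27.8%, 16.5% to 41.6%) and by 42.0% (40.3% to 43.8%) of peaks at protein-coding genes, a share just above the upper bound for channel peaks. In the whole list it was reached by 38.6% (37.3% to 39.9%), a share inside the interval for channel peaks. At a q-value of at most 0.001 the shares were 22.2% (12.0% to 35.6%) of channel peaks and 23.7% (22.2% to 25.2%) of peaks at protein-coding genes. Channel peaks had a median width of 269 bp, a median fold enrichment of 2.88, and a highest fold enrichment of 9.15. With peaks at a q-value of at most 0.01 alone, 13 channel genes (9.42%) had a peak, against 6.32% of all protein-coding genes. These shares were not adjusted for gene length, and at this limit the ratio to the length-based count in 10 bins was 0.888. The 13 genes were Kcnd1, Kcnd2, Kcnj6, Kcnj10, Kcnmb4, Kcnn4, Cacna1d, Cacna1e, Cacna1i, Cacnb2, Cacng8, Scn4a, and Scn8a. Each of these 13 had a peak with a pileup of at least 3. This follows from the limit, since every channel peak with a pileup of 2 had a q-value of 0.0272 or more.

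**Figure D3:**
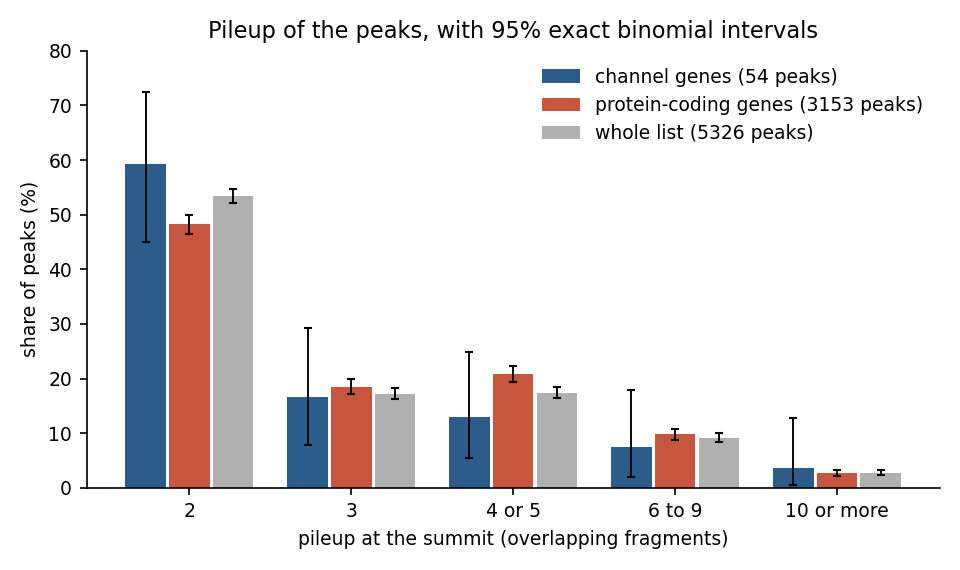
Share of peaks (y axis, percent) by pileup at the summit (x axis, number of overlapping fragments) for the 54 peaks at channel genes (blue), the 3153 peaks at protein-coding genes (red), and the whole list of 5326 peaks (gray). Error bars are 95% exact binomial intervals, and a pileup of 2 was the most frequent class in each set.

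Of the 54 peaks, 46 lay inside a channel gene and 8 outside, and 33 of the 46 were more than 20 kb from both ends. These counts describe the channel genes, most of which are long where a peak was found, and were not compared with other genes of like length. Another gene of any type was in or within 3 kb of 11 of the 54 peaks, 1 each at Kcna6, Kcnd1, Kcnip4, Kcnj10, Kcnk2, Cacna1a, Cacna1d, Cacng7, Cacng8, Scn4a, and Scn8a. In all, 12 peaks at 12 channel genes lay within 3 kb of a gene end, and the share of genes with such a peak was 8.70% against 5.30% of all protein-coding genes. The count of genes fell to 5 with peaks at a q-value of at most 0.01, and to 3 with a 1 kb window. Counted over peaks, 22.2% (95% exact binomial interval 12.0% to 35.6%) of channel peaks and 30.5% (28.9% to 32.2%) of peaks at protein-coding genes lay within 3 kb of an end, and the intervals overlap. The strand was taken from the RefSeq table of transcription start sites, which lists 101 of the channel genes and 17492 protein-coding genes. Of the 39 peaks inside channel genes of known strand, with the gene divided into 3 equal parts from its 5′ end, 15 (38.5%) had the summit in the first part, 8 (20.5%) in the middle part, and 16 (41.0%) in the last part. For all protein-coding genes the shares were 36.2%, 31.5%, and 32.3%. The middle part was the least filled in both sets, on only 8 peaks in channel genes, and no interval was computed for these shares.

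**Figure D4:**
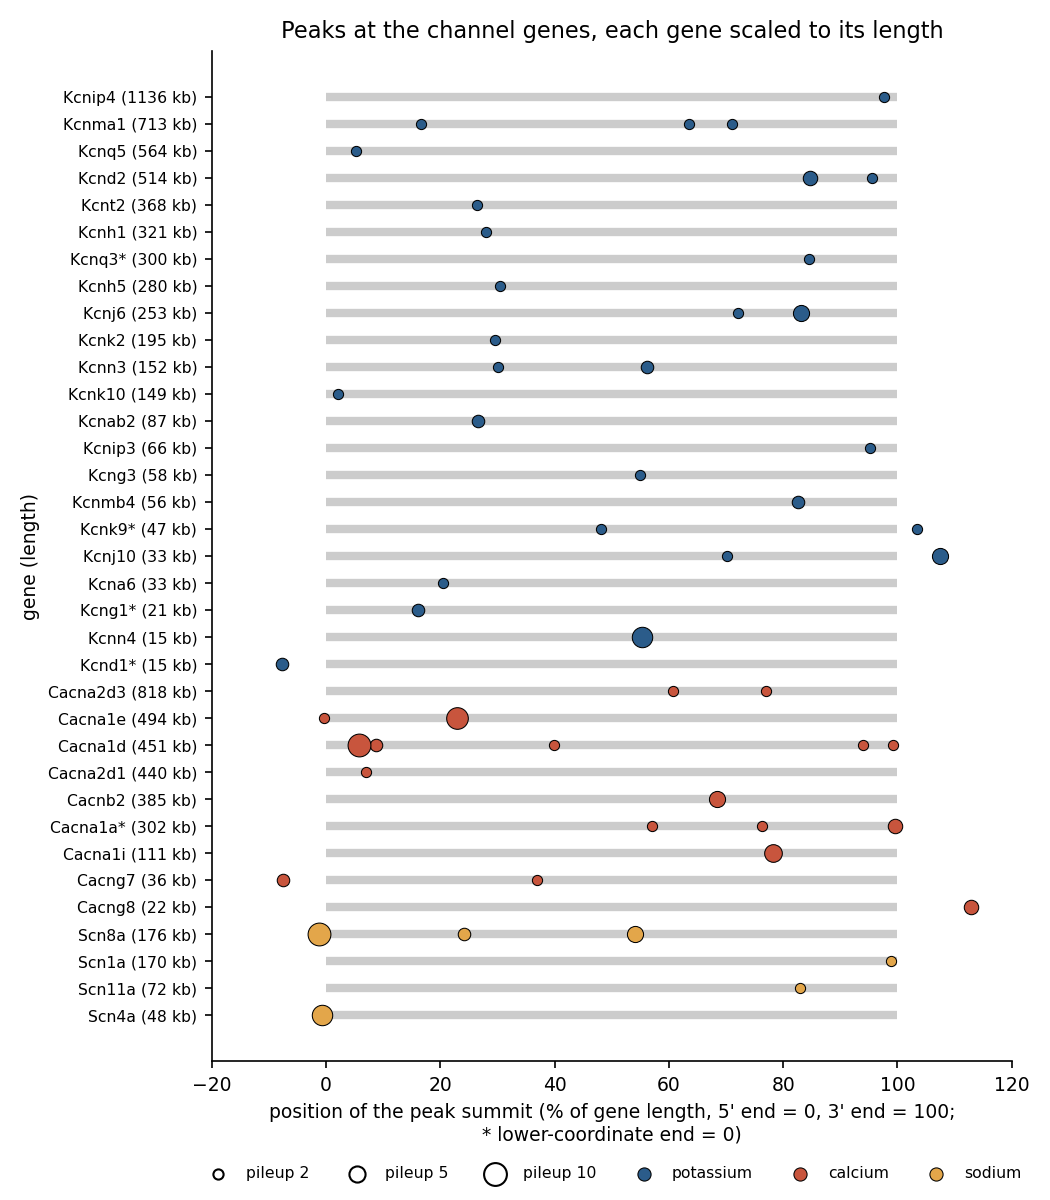
Position of the peak summits (x axis, percent of gene length, with the 5′ end at 0 and the 3′ end at 100) in the channel genes with a peak that are named here (y axis, longest first in each family, gene length in kb), where the area of a circle grows with the pileup. Genes marked with an asterisk are drawn from the lower-coordinate end. Most circles are small and lie inside the genes, and the circles at the 5′ ends of Scn8a and Scn4a and inside Cacna1d, Cacna1e, and Kcnn4 are large.

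Of 101 channel genes with a listed start, 4 (3.96%) had a peak within 3 kb of one, against 3.91% of the 17492 protein-coding genes. The 4 genes were Kcnk2, Kcnk10, Kcnab2, and Scn8a, and in all 4 the peak lay upstream of the start it was nearest to. Kcnk2 and Kcnk10 encode leak potassium channels of the TREK type, which respond to stretch, lipids and anesthetics, Kcnab2 encodes a cytoplasmic beta subunit of the Kv1 channels, and Scn8a encodes the sodium channel found at the axon initial segment and the nodes of Ranvier. The distance from the peak to the start was 27 bp for Kcnk10, 921 bp for Kcnk2, 1562 bp for Kcnab2, and 2900 bp for Scn8a. The lncRNA gene A430027H14Rik was also in or within 3 kb of the Kcnk2 peak. At Kcnk2, Kcnab2 and Kcnk10 the start was an internal one, since the peak lay 57310 bp, 22754 bp and 2855 bp from the 5′ end of the gene, and the Scn8a start also lay inside the annotated gene. The peak at Kcnk10, chr12:98575154-98575358, was the only one to overlap a promoter window, taken as 250 bases before to 50 after a start, among the 137 windows of channel genes (0.730%), against 1.74% of the 21263 windows of protein-coding genes. It had a pileup of 2, a fold enrichment of 2.88 and a −log10 q of 1.57, and it covered bases 20 to 224 of the window. The pileup was 2 at Kcnk2, 3 at Kcnab2, and 10 at Scn8a.

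The promoter windows of these 4 starts are shown because they are the channel starts nearest to a peak. The sequences are from RefSeq (GRCm38.p6), read 5′ to 3′ on the strand of the gene, and the start is base 251. Capitals mark CAGAC or its complement GTCTG, and GGCGC or its complement GCGCC, letters that Smad proteins are known to bind; neighbouring copies of the second motif can overlap and then run together.
Kcnk10, chr12:98575078-98575377, minus strand: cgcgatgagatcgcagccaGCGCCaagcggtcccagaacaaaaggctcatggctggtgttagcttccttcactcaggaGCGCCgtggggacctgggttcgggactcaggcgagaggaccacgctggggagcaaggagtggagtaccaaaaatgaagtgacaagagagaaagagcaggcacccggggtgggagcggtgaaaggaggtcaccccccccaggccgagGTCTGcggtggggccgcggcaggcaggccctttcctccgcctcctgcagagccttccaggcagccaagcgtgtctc
Kcnk2, chr1:189344143-189344442, minus strand: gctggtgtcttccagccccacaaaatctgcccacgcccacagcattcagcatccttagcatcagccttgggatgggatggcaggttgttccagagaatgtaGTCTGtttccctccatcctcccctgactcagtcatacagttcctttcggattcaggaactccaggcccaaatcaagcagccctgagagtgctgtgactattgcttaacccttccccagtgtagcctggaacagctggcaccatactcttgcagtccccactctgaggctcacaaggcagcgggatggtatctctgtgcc
Kcnab2, chr4:152452896-152453195, minus strand: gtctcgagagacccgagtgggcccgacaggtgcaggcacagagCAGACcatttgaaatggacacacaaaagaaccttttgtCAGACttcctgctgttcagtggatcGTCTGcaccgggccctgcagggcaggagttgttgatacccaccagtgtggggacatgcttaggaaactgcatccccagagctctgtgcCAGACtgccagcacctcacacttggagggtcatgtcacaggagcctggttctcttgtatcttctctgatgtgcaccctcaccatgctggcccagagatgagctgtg
Scn8a, chr15:100870395-100870694, plus strand: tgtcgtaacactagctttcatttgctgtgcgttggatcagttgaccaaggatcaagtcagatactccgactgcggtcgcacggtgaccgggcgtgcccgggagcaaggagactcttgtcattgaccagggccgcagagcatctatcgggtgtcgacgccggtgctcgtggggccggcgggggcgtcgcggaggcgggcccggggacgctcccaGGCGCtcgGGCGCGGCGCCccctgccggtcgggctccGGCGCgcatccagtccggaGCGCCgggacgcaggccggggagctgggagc
The Kcnk10 window held 1 copy of the first motif, which begins at the first base past the peak, and 2 copies of the second, which both lie under the peak. Kcnab2 held 4 copies of CAGAC or GTCTG and none of GGCGC or GCGCC, Kcnk2 held 1 and none, and Scn8a held none and 6. Among all 32851 promoter windows of the table, 49.6% held the first motif and 36.9% the second. Among the 137 windows of channel genes 55.5% and 42.3% did. The palindrome GTCTAGAC was in 0.213% of all windows and in none of the channel windows. The channel windows had a median GC content of 58.3% against 52.7% for all windows. All windows include those of genes that are not protein-coding, whereas the channel windows are all of protein-coding genes. The 21263 protein-coding windows were not counted apart here, so these differences cannot be read as a trait of channel genes. A match of such short letters is a description of the window, and most of the peaks lay outside these windows.

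Among the 14 sodium channel genes, 4 had a peak, and 3 (21.4%) had one within 3 kb of an end, against 5.30% of all protein-coding genes, a share that rests on 3 genes. Scn8a had 3 peaks. The first, chr15:100867446-100867745, lay 2118 bp upstream of the gene and had a pileup of 10, a fold enrichment of 8.31 and a −log10 q of 8.35, which ranked 156 of the 5326 peaks. The other two lay inside the gene, 42413 bp and 94883 bp from its 5′ end, with pileups of 3 and 5. Their distances to the nearest listed start were 23717 bp and 28475 bp. The peak of Scn4a, the sodium channel of skeletal muscle, was on chr11:106365778-106365981, 219 bp upstream of the 5′ end, with a pileup of 8, a fold enrichment of 7.48 and a −log10 q of 7.25. The single listed start of Scn4a lay 16388 bp from this peak, and the lncRNA gene LOC108167929 was in or within 3 kb of it. The peak of Scn1a, which encodes the sodium channel of inhibitory interneurons, lay inside the gene 1964 bp from its 3′ end and had a pileup of 2. The peak of Scn11a, a channel of nociceptive neurons, was 59238 bp from the 5′ end and also had a pileup of 2. The strongest peaks of the family were thus at Scn8a and Scn4a, and those of Scn1a and Scn11a were at the lowest pileup in the list. Scn1a stands in a group of 5 sodium channel genes on chromosome 2 with Scn2a, Scn3a, Scn7a, and Scn9a, of which the others had no peak, although Scn9a is 155 kb, Scn2a 147 kb and Scn7a 111 kb long. The 4 beta subunit genes had no peak and a median length of 13.9 kb.

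Among calcium channel genes, 4 of the 10 pore genes, 2 of the 4 alpha2delta genes, 1 of the 4 beta genes, and 2 of the 8 gamma genes had a peak. The length-based counts in 10 bins were 3.42, 1.73, 1.04, and 1.46 genes, each within 1 gene of the observed count. The most peaks of any channel gene were found in Cacna1d, an L-type pore that opens at subthreshold voltages, with 5 peaks in 451 kb. The strongest of these, chr14:30465371-30465685, was 25471 bp from the 5′ end and from the nearest listed start, with a pileup of 10, a fold enrichment of 9.15 and a −log10 q of 10.3, the highest at any channel gene. The lncRNA gene 4831407H17Rik was in or within 3 kb of this peak. Of its other 4 peaks, 1 had a pileup of 3 and 3 had a pileup of 2. In Cacna1e, which encodes the R-type channel, the peak on chr1:154771305-154771513 had a pileup of 9 and a fold enrichment of 8.32. It lay 113272 bp from the 5′ end and 45385 bp from the nearest listed start. A second peak, 1566 bp upstream of the gene, had a pileup of 2. Cacna1i, a T-type pore, had 1 peak with a pileup of 6, 86649 bp from its start. Cacna1a, the P/Q-type pore of presynaptic terminals, had 3 peaks with pileups of 2, 2, and 4, and the last was within the gene, 989 bp short of the higher-coordinate end. The pore genes Cacna1c (610 kb), which encodes the main L-type channel of the brain, and Cacna1b (159 kb), which encodes the N-type channel, had no peak, and neither had Cacna1g (66.0 kb) nor Cacna1h (62.1 kb).

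Of the auxiliary calcium channel genes, Cacnb2 had a peak with a pileup of 5 and a fold enrichment of 5.35. It lay 263139 bp from the 5′ end and 42908 bp from the nearest listed start. Cacna2d1 and Cacna2d3, which encode subunits that bring calcium channels to the membrane, had 1 and 2 peaks, all with a pileup of 2. Cacnb4 (248 kb) and Cacna2d2 (130 kb) had none. Cacng7 and Cacng8 encode transmembrane AMPA receptor regulatory proteins, of which the product of Cacng8 is abundant in the hippocampus. They lie side by side on chromosome 7 with Cacng6, and 5 peaks fell in the 104 kb span of the 3 genes with 3 kb on either side, of which 3 lay in or within 3 kb of one of these genes. The peak of Cacng8, chr7:3418972-3419355, lay 2706 bp beyond its 3′ end, with a pileup of 4, a fold enrichment of 4.54 and a −log10 q of 3.23. Cacng7 had a peak with a pileup of 3 lying 2536 bp upstream of it, and a peak with a pileup of 2 inside it. Cacng2 (128 kb), the gene of stargazin, had no peak.

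Among potassium channel genes, 8 of the 30 genes of voltage-gated pores had a peak, and the length-based counts were 6.92 in 10 bins and 8.35 in 100 bins. Kcnd2, the gene of the main A-type channel of hippocampal dendrites, had 2 peaks, 435259 bp and 491218 bp from its 5′ end in a gene of 514 kb. The first, chr6:21650605-21650807, had a pileup of 4 and a fold enrichment of 4.63, and the second had a pileup of 2. Kcnd1, a related pore gene of 14.5 kb, had 1 peak with a pileup of 3 and a −log10 q of 2.55 that lay 857 bp outside its lower-coordinate end and 1823 bp from the neighbouring gene Gripap1. Kcna6, Kcnh1, Kcnh5, Kcnq3, and Kcnq5 had 1 peak and a pileup of 2 each, and of these Kcnq3 and Kcnq5 carry the M-current that damps repetitive firing. No peak was found at Kcna1, Kcna2, Kcna4, Kcnc1, or Kcnd3 (222 kb), nor at the long genes Kcnh7 (491 kb) and Kcnb2 (437 kb). Of the 10 silent subunit genes, whose products form channels only together with other pores, Kcng1 and Kcng3 had 1 peak each, with pileups of 3 and 2, and the length-based counts were 1.21 and 1.07 genes in 10 and 100 bins.

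Of the 8 genes of potassium channels activated by calcium or sodium, 4 had a peak, against length-based counts of 2.29 and 2.77 in 10 and 100 bins. Kcnn4, the intermediate-conductance channel, is 15.4 kb long and had the strongest potassium channel peak. This peak, chr7:24377984-24378351, lay inside the gene 8158 bp from its 5′ end, with a pileup of 8, a fold enrichment of 6.80 and a −log10 q of 5.76. Kcnma1, the pore of the large-conductance BK channel, had 3 peaks in 713 kb, all with a pileup of 2. Kcnn3, a small-conductance channel that contributes to the afterhyperpolarization, had 2 peaks with pileups of 2 and 3, and Kcnt2, a sodium-activated channel, had 1 with a pileup of 2. Kcnn2 (417 kb), the related small-conductance channel of CA1 neurons, had none. Among these 4 genes the shortest, Kcnn4, held the strongest peak, and the longest, Kcnma1, held only peaks of 2 fragments. A relation of gene length to peak strength was not tested, and the strongest peak at any channel gene was in Cacna1d, of 451 kb.

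Of the 15 inward rectifier genes, 2 had a peak, against length-based counts of 2.27 in 10 bins and 2.19 in 100 bins. Kcnj10, the potassium channel through which astrocytes take up potassium, had a peak on chr1:172376441-172376709 with a pileup of 5, a fold enrichment of 5.26 and a −log10 q of 3.99. It lay 2356 bp beyond the 3′ end of Kcnj10 and overlapped the neighbouring gene Pigm. A second peak inside Kcnj10 had a pileup of 2. Kcnj6, a G-protein-gated channel that mediates slow inhibition, had 2 peaks inside its 253 kb, with pileups of 5 and 2, and the stronger one was 209890 bp from the 5′ end and 68884 bp from the nearest listed start. Kcnj3 (186 kb), the partner of Kcnj6 in these channels, had none. Of the 14 leak channel genes, 3 had a peak, against length-based counts of 2.27 and 2.12 in 10 and 100 bins. These were Kcnk2, Kcnk10, and Kcnk9, all with a pileup of 2, and one of the 2 peaks at Kcnk9 lay 1483 bp outside its higher-coordinate end.

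Of the 17 auxiliary potassium channel genes, 4 had 1 peak each, against length-based counts of 3.02 and 3.68 genes in 10 and 100 bins. Kcnmb4, the neuronal beta subunit of the BK channel, had a pileup of 3 and a −log10 q of 2.55, and Kcnab2 had a pileup of 3. Kcnip3 and Kcnip4 encode calcium sensors that bind the Kv4 channels, and both had a pileup of 2. The Kcnip3 peak lay inside the gene 2946 bp from its 3′ end. Kcnip4 is the longest of all the channel genes at 1136 kb and had 1 peak. Kcnab1 (429 kb) had no peak. Among the HCN genes, Hcn2 (19.5 kb), Hcn3, and Hcn4 (40.2 kb) had no peak.

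Genes of channels that are well known in hippocampal neurons were also counted as a list. Of these 39 genes, 16 (41.0%) had a peak, with a median length of 176 kb and a length-based count of 13.4 in 10 bins and 15.3 in 100 bins. The share was again close to that of genes of like length. A list of related genes outside the symbol rule, for proteins that bind or regulate these channels and for other cation and proton channels, held 33 genes, and 12 of them (36.4%) had a peak, against length-based counts of 8.55 and 10.9. The most peaks among them were in Dpp6, an auxiliary subunit of the Kv4 channels, with 6 peaks in 910 kb and pileups of 2, 2, 2, 2, 5, and 9. Its relative Dpp10 had 2 peaks with pileups of 5 and 2. Unc79, part of the sodium leak channel complex, had 1 with a pileup of 7, and Unc80 had 1 with a pileup of 2. Stac2, Pex5l, which encodes the HCN-binding protein TRIP8b, Tpcn1, and Tpcn2 had 1 each, with pileups of 5, 4, 4, and 4. Ank3, the organizer of the axon initial segment, and Fgf14 had 2 each, and Cntnap2 and Fgf12 had 1 each, all with a pileup of 2. The density over the 33 listed genes was 2.02 peaks per Mb (95% exact Poisson interval 1.23 to 3.12), an interval that includes the 2.79 per Mb of all protein-coding genes.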

How the data were processed

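Cut&Tag libraries were made from nuclei of mouse hippocampus with an anti-Smad4 or an IgG control antibody, 1 library each. Reads were paired-end, and the authors ran MACS2 on the uniquely mapped ones with a limit of 0.05. The submitters' processing notes name BWA, MACS2, HOMER, and mm10, with no role given. Duplicate handling, versions, and use of the IgG library in peak calling are not given in the sources used here. The deposited list gives for each peak a fold enrichment over background, a score (the −log10 q times 10, rounded down), and the −log10 p and q (p-value and q-value). The largest q-value was 0.0472. Library depth was not given, and intervals cover counting error only.

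Coordinates were counted from 1. Genes, strands, and promoter sequences were taken from RefSeq tables of GRCm38.p6, without a genome sequence, so peak sequences are not shown. Strand and starts were used only for genes listed in the promoter table. Each pileup was recovered as the whole number that gives both the deposited fold enrichment and p-value under a Poisson background. Length-based counts used all 21887 protein-coding genes in 10 or 100 bins. They stand in for length-matched random genes and carry no p-value. Peaks per Mb were counted once over merged windows. The assignment of peaks and the recovery of pileups were checked on simulated data.

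The members and lists were chosen with earlier results of these data known. The genes named were those with a peak within 3 kb of a gene end, the 3 with the highest −log10 q and the 3 longest without a peak in each family, the 5 with the most peaks, the listed hippocampal channels, and genes with a peak on the list of related genes. Others are named as members of a group or threshold, and the values of some genes under these rules are not reported here. Alternatives were stricter peak limits, summits, a minimum share of each peak, a 1 kb window, gene bodies, the nearest gene, and other length bins. Python 3.11.15, NumPy 2.4.6, pandas 2.3.3, SciPy 1.17.1, and Matplotlib 3.10.9 were used.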

Additional observations from a re-analysis of the deposited data

How the results depend on the processing

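No paired analysis was possible because each antibody has 1 library and only 1 peak list was analysed. Peaks of 2 fragments make up most of the channel peaks, which limits every count. Over all alternatives, 40 recomputed values stayed within 1.5 times the count or within the counting interval, and 25 moved. With summits, a minimum share of each peak, gene bodies, the nearest gene, 100 length bins, or a background without channel genes, no value moved.

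Fewer peaks lowered the counts by construction. The number of channel genes with a peak fell from 36 to 13 and 11 at q-values of at most 0.01 and 0.001, to 9 with fold enrichments from 5 upward, and to 19 with pileups from 3 upward. Potassium genes fell from 23 to 6, 4, 3, and 10 in the same order. Calcium genes fell from 9 to 5, 5, and 4 (7 with pileups from 3 upward), while sodium genes fell from 4 to 2 in each. The count near gene ends (within 3 kb) fell from 12 to 5, 4, 3, and 7, and to 3 with a 1 kb window. The density of 2.98 peaks per Mb fell to 0.827, 0.661, 0.551, and 1.21 per Mb.

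The ratio of 1.19 to the length-based count was 2.01 without length bins, which leaves gene length out by construction. It ranged from 0.888 to 1.41 over the other alternatives, and was below 1 only at a q-value of at most 0.01.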

Other observations

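Receptor genes for glutamate, GABA, and glycine, the partners of these channels at synapses, were counted in the same way. Of 52 genes, 18 (34.6%) had a peak in or within 3 kb, with a median length of 160 kb and length-based counts of 15.6 in 10 bins and 18.7 in 100 bins. The density was 2.63 peaks per Mb (95% exact Poisson interval 1.83 to 3.66), and its interval overlaps that of the channel genes at 2.98 per Mb.

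In the group of 5 sodium channel genes on chromosome 2, the span of 1328 kb with 3 kb on either side held 3 peaks, of which only that of Scn1a lay in or within 3 kb of one of these genes.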
